A study of Mus musculus with 6 samples.

Results

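The genes described here are 10 collagen crosslinking and modifying enzymes of the mouse cornea, out of 22007 gene symbols in the tables. They were taken by symbol: the lysyl oxidases Lox, Loxl1, Loxl2, Loxl3 and Loxl4, the lysyl hydroxylases Plod1, Plod2 and Plod3, the prolyl 4-hydroxylase subunit P4ha1 and the collagen chaperone gene Serpinh1. All 10 were found, and all 10 passed the filter on low counts. RNA was measured in whole corneas of male C57BL/6J mice in 2 groups. Mice of the OFBI group met 1 open-field blast while awake, from 350 g of C-4 set off 3 m away, and corneas were collected 12 months later. Mice of the Naive group carry the same 12-month label and no blast. The sources used here give the age of neither group at the start. Each group had 3 libraries, each a pool of corneas and described by the series as a biological replicate, and all 6 carry batch number 4. How many animals went into a pool is not given in the sources used here.

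Collagen is modified and then crosslinked along a fixed route. In the endoplasmic reticulum, prolyl 4-hydroxylase hydroxylates prolines, which makes the triple helix stable, and lysyl hydroxylases hydroxylate lysines that later take part in crosslinks. The chaperone HSP47, the product of Serpinh1, binds the helix before export. Outside the cell, lysyl oxidases, which are copper-dependent amine oxidases, convert lysine and hydroxylysine side chains of collagen and elastin into aldehydes that form crosslinks. In the cornea the stroma is a stack of thin collagen fibrils made by keratocytes, and its crosslinks bear on stiffness and shape.

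Depth followed the groups. The Naive libraries held 41971752 to 47809779 estimated counts and the OFBI libraries 1173472 to 3410476, with OFBI replicate 3 the shallowest, so that the mean Naive depth was 16.7 times the mean OFBI depth. About 4 estimated counts appear to stand for 1 sequenced fragment, so a library at 0 still allows 3 fragments or 12 counts, which in CPM, counts scaled to a common library size, is 3.52, 3.58 and 10.2 in the OFBI libraries and 0.251 to 0.286 in the Naive libraries. Such limits cover counting error only. An effect of the blast and an effect of depth cannot be told apart by design. The values are CPM scaled by trimmed mean of M-values (TMM), and the test was edgeR's quasi-likelihood test with Benjamini-Hochberg adjustment over all 13941 genes tested, called at an adjusted p below 0.05.

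After OFBI, 3 of the 10 genes were called higher, Lox, Loxl1 and Serpinh1, against 8.41% of all genes tested. None was called lower by edgeR, against 10.4% of all genes tested, and none was lower at an unadjusted edgeR p below 0.05, against 18.5%. DESeq2 called the same 3 genes higher, against a background of 13.3%, and none lower, against 13.1%. The limma-voom fit called Lox and Loxl1 higher, against 7.31%, and none lower, against 8.95%. The remaining 7 did not pass. The median log2 fold change of the 10 genes was 0.04, beside -0.20 for all genes tested. The 3 OFBI libraries lay above all 3 Naive libraries for Lox, Loxl1 and Serpinh1, as for 16.4% of all genes tested, and below them for Plod2, as for 29.9%.

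**Figure D1:**
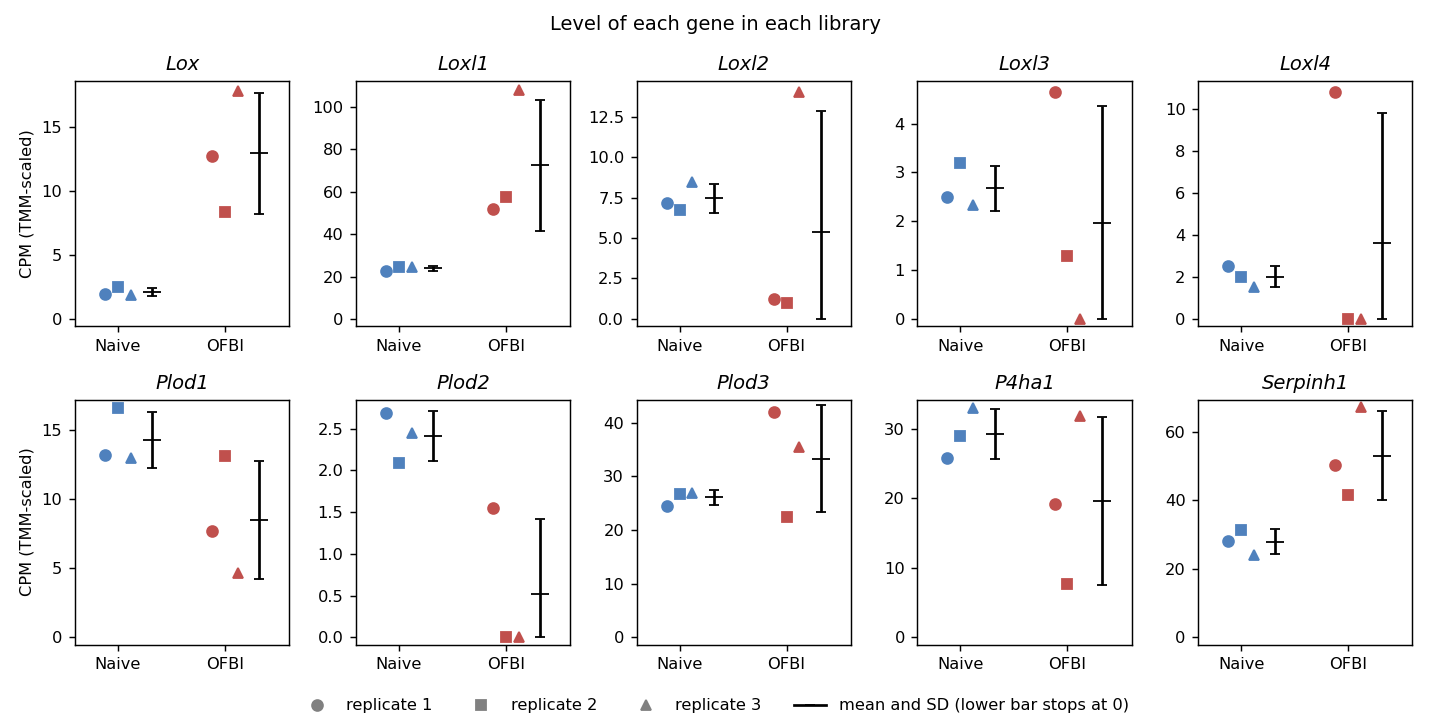
Level of each of the 10 genes in CPM (TMM-scaled, linear axes that differ between panels) in the 3 Naive (blue) and 3 OFBI (red) libraries, with marker shape for the replicate and the mean and SD in black. Lox, Loxl1 and Serpinh1 have all OFBI libraries above all Naive libraries, Plod2 has them below, and the other 6 overlap.

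Lox (chromosome 18, 52516067 to 52529867, GRCm38, minus strand), the founding lysyl oxidase, showed the largest called rise of the 10. Replicates 1, 2 and 3 held 41, 26 and 19 estimated counts of Lox after OFBI and 99, 115 and 84 in Naive corneas. Scaled to CPM, these became 12.7, 8.32 and 17.8 after OFBI and 1.96, 2.48 and 1.85 in Naive corneas. Every OFBI library thus lay above every Naive library, and the lowest OFBI value belonged to replicate 2. Lox went from 2.1 ± 0.337 to 12.9 ± 4.73 CPM (SD, n = 3 in each group), or 2.60 in log2 fold change (SE 0.53, edgeR adjusted p = 0.0231). The OFBI counts of Lox sum to 86 over the 3 libraries, against 298 over the Naive libraries.

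Loxl1 (chromosome 9, 58287738 to 58313186, minus strand), a lysyl oxidase best known from elastic fibre assembly, was per length the most abundant lysyl oxidase in every library. Its level was 51.9, 57.6 and 108 CPM in the OFBI libraries and 22.5, 24.7 and 24.5 CPM in the Naive replicates. The groups did not overlap, and OFBI replicate 3 lay apart from the other OFBI libraries on the high side. The change from 23.9 ± 1.23 to 72.4 ± 30.6 CPM (SD, n = 3 in each group) was 1.58 in log2 fold change (SE 0.31, edgeR adjusted p = 0.0207). Without OFBI replicate 3 it was 1.19 (edgeR adjusted p = 0.0063). Loxl1 transcripts are rich in GC, at 61.03%, and genes called higher had a median GC content of 55.4% against 50.4% for all genes tested. Once a GC and length trend was taken out, Loxl1 stood at a log2 fold change of 0.81 (edgeR adjusted p = 0.0803), so the call was lost, while that of Lox, with a GC content of 43.89%, was 3.05 (edgeR adjusted p = 0.0242). Lox was then the 1 gene of the 10 called higher, against 6.49% of all genes tested.

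The other lysyl oxidases were low, and their OFBI values rested on single libraries. Loxl2 (chromosome 14, 69609068 to 69695834, plus strand) encodes an enzyme that also acts on the type IV collagen of basement membranes. It had 1.24, 0.96 and 14.0 CPM after OFBI and 7.17, 6.73 and 8.44 CPM in Naive corneas. OFBI replicates 1 and 2 thus lay below all Naive libraries and OFBI replicate 3, with 15 estimated counts, above them. The change in log2 was -0.69 (SE 1.01, edgeR adjusted p = 0.684), and -2.76 without OFBI replicate 3 (edgeR adjusted p = 0.00908), where Loxl2 was called lower, as were 13.8% of all genes tested. The latter rests on 4 and 3 estimated counts, against 312 to 383 in the Naive libraries.

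Loxl3 (chromosome 6, 83034173 to 83052562, plus strand) and Loxl4 (chromosome 19, 42593982 to 42612813, minus strand) belong with Loxl2 to the lysyl oxidases that carry scavenger receptor cysteine-rich domains. Loxl3 had 15, 4 and 0 estimated counts in OFBI replicates 1, 2 and 3, or 4.64, 1.28 and 0 CPM, and 2.34 to 3.19 CPM in Naive corneas. Loxl4 had 35, 0 and 0 counts after OFBI, so that 1 library reached 10.8 CPM, and 1.52 to 2.51 CPM in Naive corneas. Both ranges enclosed the Naive values, and the Naive levels lie under what 0 counts allow in OFBI replicates 2 and 3, so a fall was not detectable there. The log2 fold changes were -0.26 (SE 0.87) for Loxl3 and 0.97 (SE 1.34) for Loxl4, and neither sign held over the alternatives.

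Per kilobase of the longest coding transcript, Loxl1 made up most of the lysyl oxidase signal in both groups. Its share of the family was 69.2%, 70.7% and 71.5% in the Naive and 69.4%, 88.6% and 83.6% in the OFBI replicates. The lowest OFBI share was within the Naive range, so the groups overlapped. The share of Lox was 3.76% to 4.93% in Naive and 8.9% to 11.8% in OFBI libraries, without overlap. That of Loxl2 was 11.9% to 15.3% in Naive and 1.03%, 0.916% and 6.77% in OFBI libraries, also without overlap. The OFBI shares of Loxl2 rest on 4, 3 and 15 estimated counts, and its CPM overlapped between the groups. How often shares within a family separate the groups over all genes was not computed. No test was made of these shares, which are linked because they sum to 100% within a library.

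**Figure D2:**
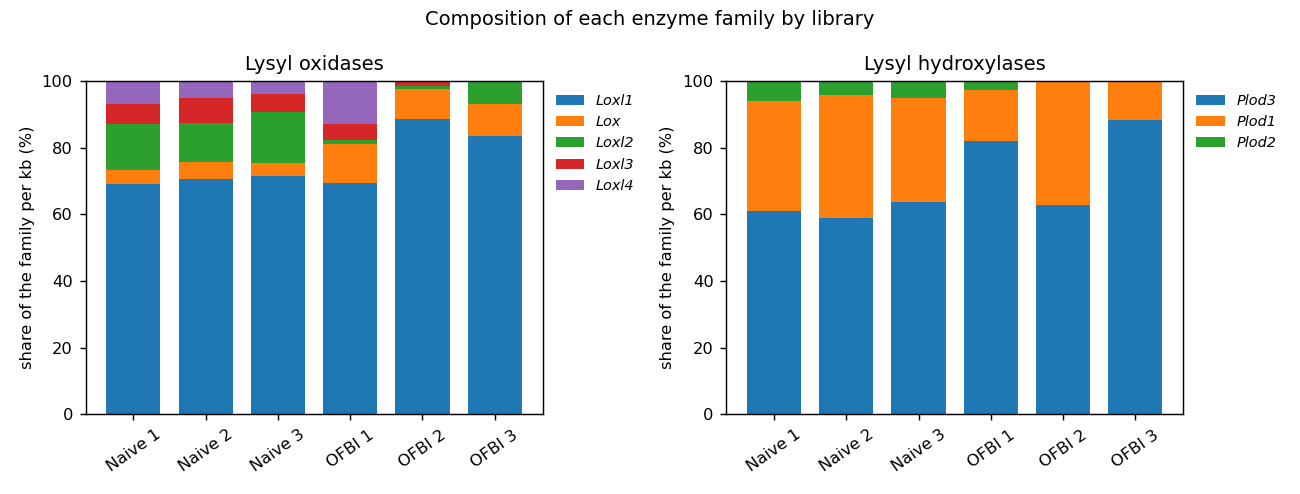
Share of each gene in the per-kilobase sum of the 5 lysyl oxidases (left) and of the 3 lysyl hydroxylases (right) in each library, in percent. Loxl1 and Plod3 make up the largest share in each of the 6 libraries. Loxl2 is at or under 6.77% in OFBI libraries, from 4, 3 and 15 estimated counts, against at least 11.9% in Naive libraries.

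No lysyl hydroxylase was called. Plod3 (chromosome 5, 136987019 to 136996648, plus strand), whose product also transfers sugars to hydroxylysine, was the most abundant of the 3, with 42.0, 22.4 and 35.5 CPM after OFBI and 24.5, 26.8 and 27.0 CPM in Naive corneas. The Naive libraries lay close together and the OFBI libraries fell on both sides of them. The change in log2 was 0.35 (SE 0.28, edgeR adjusted p = 0.44), giving an interval of 2 SE from -0.22 to 0.92, and -0.16 with a GC and length trend removed.

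Plod1 (chromosome 4, 147909753 to 147936767, minus strand) encodes the enzyme that hydroxylates lysines of the collagen helix. It had 7.73, 13.1 and 4.68 CPM after OFBI and 13.2, 16.6 and 13.0 CPM in Naive corneas, with OFBI replicate 2 inside the Naive range. The change in log2 was -0.69 (SE 0.45, edgeR adjusted p = 0.337), with a 2 SE interval of -1.59 to 0.21. Plod2 (chromosome 9, 92542223 to 92608428, plus strand), whose product hydroxylates lysines of the telopeptides at the ends of the chains, had 5, 0 and 0 estimated counts after OFBI and 136, 97 and 111 in Naive corneas. In fragments this is about 1 against 86, a ratio of 0.223 after scaling, with an exact 95% counting interval of 0.00558 to 1.28. The Naive level of 2.41 ± 0.299 CPM (SD, n = 3) is under what 0 counts allow in a single OFBI library, and the difference of Plod2 was not called (edgeR adjusted p = 0.244). Without OFBI replicate 1 Plod2 was at 0 in both remaining OFBI libraries and was called lower (edgeR adjusted p = 0.0381), as were 7.77% of all genes tested. In that fit it passed the filter on low counts through the Naive libraries alone. Its Naive level is under the floor of either remaining OFBI library, 3.58 and 10.2 CPM, so this call is not taken as a fall.

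P4ha1 (chromosome 10, 59323296 to 59373304, plus strand), a catalytic subunit of prolyl 4-hydroxylase, spread widely after OFBI. It had 19.2, 7.68 and 31.8 CPM in the OFBI libraries and 25.7, 29.0 and 32.9 CPM in the Naive replicates. OFBI replicates 1 and 2 lay below the Naive libraries and OFBI replicate 3 among them. The change in log2 was -0.65 (SE 0.47, edgeR adjusted p = 0.389), with a 2 SE interval of -1.59 to 0.30.

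Serpinh1 (chromosome 7, 99345376 to 99353239, minus strand), the gene of HSP47, had 163, 130 and 72 estimated counts after OFBI and 1428, 1461 and 1098 in Naive corneas. In CPM these were 50.4, 41.6 and 67.3 after OFBI and 28.2, 31.5 and 24.2 in Naive corneas. All OFBI libraries were higher, and the gap between the lowest OFBI and the highest Naive library was smaller than the spread among the OFBI libraries. Serpinh1 went from 28.0 ± 3.66 to 53.1 ± 13.1 CPM (SD, n = 3 in each group), or 0.91 in log2 fold change (SE 0.25, edgeR adjusted p = 0.0445), close to the threshold. The direction held in all 26 alternatives and the call in 10 of them. It was lost with limma-voom (adjusted p = 0.0827), with library size as the only scaling (edgeR adjusted p = 0.0846) and without OFBI replicate 1 (edgeR adjusted p = 0.0795).

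The calls of all 3 genes depended on having every Naive library in the edgeR test. Without Naive replicate 1, 2 or 3 the edgeR adjusted p was 0.112, 0.121 and 0.116 for Lox, 0.0943, 0.0967 and 0.0919 for Loxl1, and 0.161, 0.145 and 0.189 for Serpinh1, with log2 fold changes of 2.56 to 2.78, 1.57 to 1.64 and 0.85 to 1.04. The unadjusted p was at most 0.0126 for Lox, 0.00736 for Loxl1 and 0.0321 for Serpinh1. In those fits 0.802%, 0% and 0.793% of all genes were called higher. Both DESeq2 and limma-voom, run in the same way after the data were seen, called Lox and Loxl1 higher without each Naive replicate in turn, and Serpinh1 passed in 1 of those 6 fits, with limma-voom and without Naive replicate 2. Without Naive replicates 1, 2 and 3, DESeq2 called 10.3%, 8.35% and 9.18% of all genes higher, and limma-voom 10.9%, 8.57% and 9.98%.

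**Figure D3:**
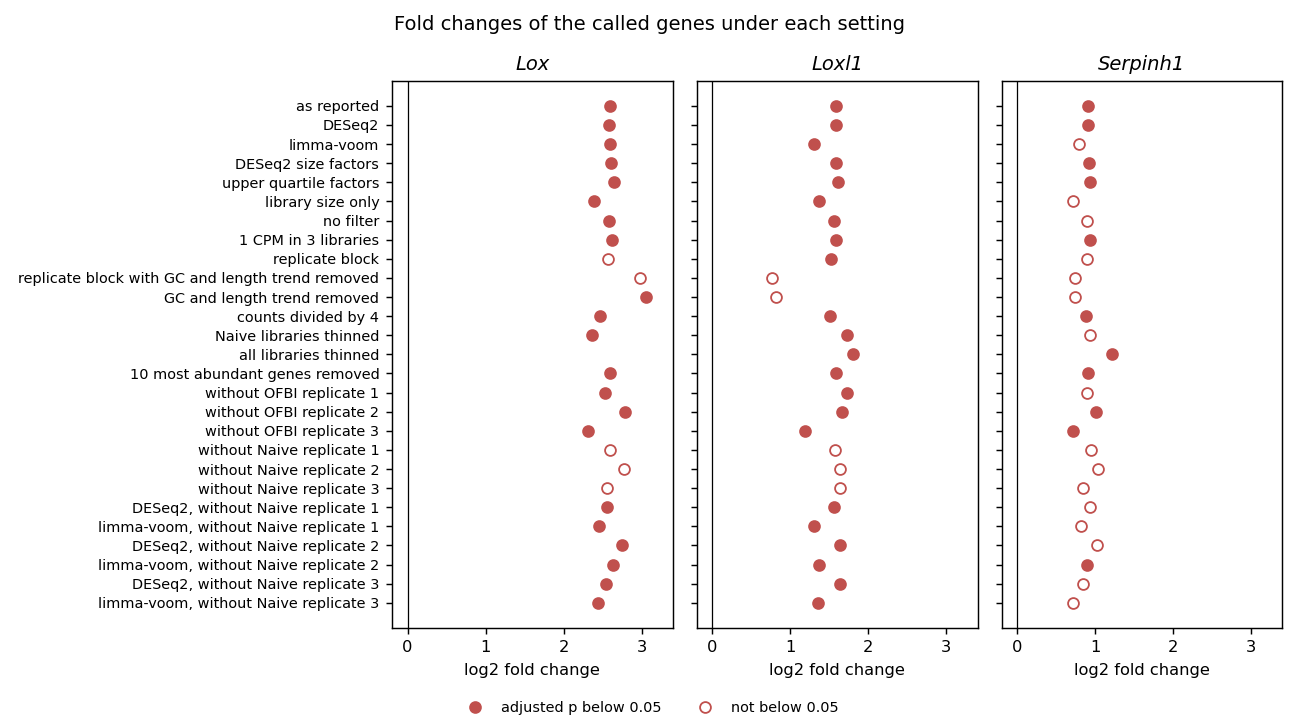
Log2 fold change of Lox, Loxl1 and Serpinh1 (OFBI against Naive) as reported and under each alternative, filled where the adjusted p was below 0.05. All points lie above 0, and those of Loxl1 with a GC and length trend removed, at 0.81 and 0.77, lie to the left of its other points.

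Per kilobase, the order of the 10 genes in Naive corneas was led by Serpinh1 at 12.3 ± 1.61 CPM per kb (SD, n = 3), above all other genes in every Naive library. Plod3 at 7.95, Loxl1 at 7.25 and P4ha1 at 7.23 CPM per kb followed, and as neighbours in the order they overlapped. Plod1 at 4.39 and Loxl2 at 1.4 CPM per kb stood apart from their neighbours. Plod2, Loxl3, Loxl4 and Lox lay at 0.657, 0.652, 0.538 and 0.442 CPM per kb, each overlapping the next, with Lox the lowest of all. After OFBI, Serpinh1 at 23.4 ± 5.75 and Loxl1 at 22.0 ± 9.28 CPM per kb (SD, n = 3) led and overlapped each other, and Lox at 2.73 ± 0.997 CPM per kb (SD, n = 3) took the fifth place by its mean, overlapping Plod1 in the sixth place at 2.62 CPM per kb. In OFBI replicate 2 Lox, at 1.76, lay below Plod1, at 4.05 CPM per kb.

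The fibrillar collagens and elastin, on which these enzymes act, were mostly called higher. Of 8 substrate genes tested, 7 were called higher by edgeR, against 8.41% of all genes tested, and none lower, against 10.4%. None was lower at an unadjusted edgeR p below 0.05, against 18.5%, or by DESeq2, against 13.1%. The median log2 fold change of the 8 was 1.93. The log2 fold changes of Eln, Col3a1, Col1a1 and Col1a2 were 3.05, 3.02, 2.23 and 1.66. Once the GC and length trend was taken out they were 2.17, 2.61, 1.44 and 0.97, and all 4 were still called. The median of the 8 was then 1.23, with 6 called. Without Naive replicates 1, 2 and 3 the edgeR test called 4, 0 and 6 of the 8, with all 8 higher at an unadjusted p below 0.05 each time. Col1a1 and Col1a2 encode the chains of type I collagen, the main collagen of the corneal stroma.

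Set against collagen counts in the same library, 7 of the 10 genes were lower in every OFBI library than in any Naive library, as were 89% of all genes tested. The summed collagen level itself was higher after OFBI by 2.03 in log2 CPM, so a count per collagen count falls for a gene whose own level is the same. This ratio does not depend on how the libraries are scaled to each other. Per 1000 estimated counts of Col1a1, Col1a2, Col3a1, Col5a1 and Col5a2 together, the 5 lysyl oxidases had 13.8, 14.2 and 19.9 counts in the OFBI libraries and 32.1, 26.8 and 22.2 in the Naive replicates. The 3 lysyl hydroxylases had 8.73, 7.41 and 5.75 after OFBI and 35.4, 31.1 and 24.4 in Naive corneas. Both families lay lower in every OFBI library than in any Naive library, which is the background pattern and is no result about these families.

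P4ha1 had 3.26, 1.6 and 4.55 counts per 1000 collagen counts after OFBI and 22.6, 19.9 and 18.9 in Naive corneas. Serpinh1 had 8.57, 8.68 and 9.63 after OFBI and 24.7, 21.6 and 13.9 in Naive corneas. The difference of the mean log2 ratios, OFBI minus Naive, was -0.76 for the lysyl oxidases, -2.06 for the lysyl hydroxylases, -2.83 for P4ha1 and -1.12 for Serpinh1. Over the 9547 genes with counts in all 6 libraries the median was -2.10, so that the lysyl hydroxylases were near it, the values of the lysyl oxidases and Serpinh1 were nearer to 0 and that of P4ha1 was farther from it. With a GC and length trend removed from the counts, the differences of the 4 were -0.54, -1.81, -1.74 and -0.57, and P4ha1 was no longer the lowest of the 4. The median over all genes was not computed with the trend removed, so these values cannot be set against -2.10. No test was made of the ratios, since the collagens were known to be higher. Lox alone of the 10 genes lay higher in every OFBI library by this ratio, with 2.16, 1.74 and 2.54 counts per 1000 after OFBI and 1.72, 1.7 and 1.06 in Naive corneas, a pattern found in 0.703% of all genes tested. The lowest OFBI and highest Naive values of Lox were nearly equal. Loxl1, at 8.83 to 15.4 against 14 to 19.7, and Loxl4, at 0 to 1.84 against 0.873 to 2.2, overlapped between the groups.

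**Figure D4:**
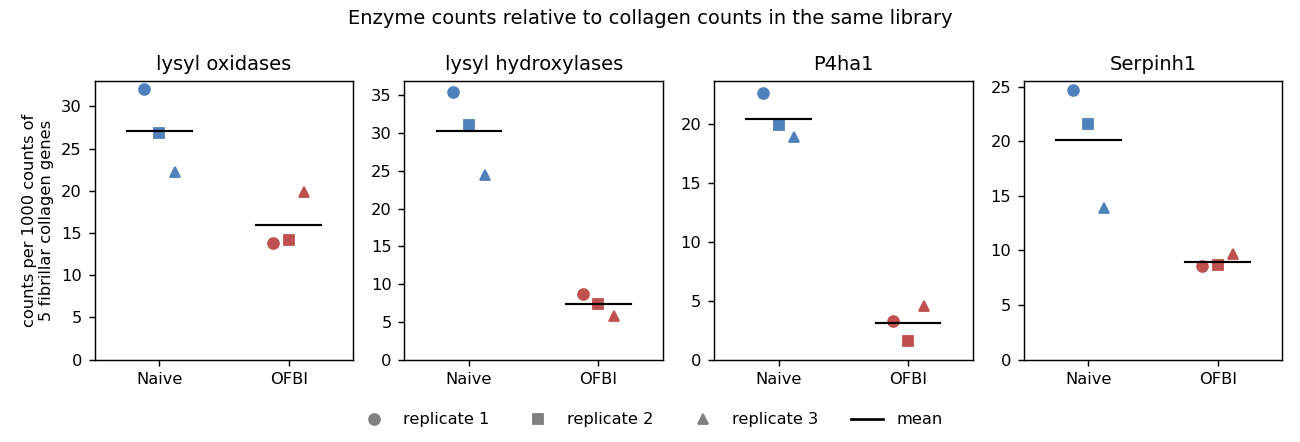
Estimated counts of the 5 lysyl oxidases, the 3 lysyl hydroxylases, P4ha1 and Serpinh1 per 1000 counts of 5 fibrillar collagen genes in the same library, by group, with the mean as a line and axes that start at 0. All OFBI libraries lie below all Naive libraries in each panel, with P4ha1 at 1.6 to 4.55 against 18.9 to 22.6, as they do for 89% of all genes tested.

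The other enzymes and chaperones of collagen folding gave few calls. Of 15 genes in the list, 14 were tested and 12 did not pass. Of the 14, 1 was called higher, against 8.41% of all genes tested, and 1 lower, against 10.4%. The median log2 fold change was 0.02. P3h3 was called higher and P3h4 lower, and their products form a complex with the lysyl hydroxylase encoded by Plod1. P3h3 had 29.1, 26.6 and 71.1 CPM after OFBI and 7.98 to 10.5 CPM in Naive corneas. The change on the log2 scale was 2.13 (SE 0.43, edgeR adjusted p = 0.0231), and 1.30 once the GC and length trend was taken out (edgeR adjusted p = 0.0546). P3h4 had 21, 15.7 and 19.6 CPM after OFBI and 31.3 to 36.1 CPM in Naive corneas, or -0.87 in log2 fold change (SE 0.24, edgeR adjusted p = 0.0459). The groups did not overlap for either gene, as for 16.4% of all genes tested with OFBI above and 29.9% with OFBI below. The call of P3h4 was lost in 18 of 26 alternatives, limma-voom among them (adjusted p = 0.142).

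The most abundant genes of that list showed small differences. Tgm2, a transglutaminase that crosslinks proteins through glutamine and lysine, had 870 to 1020 CPM after OFBI and 818 to 894 CPM in Naive corneas, or 0.17 in log2 fold change (SE 0.12, edgeR adjusted p = 0.375). P4hb, the protein disulfide isomerase that pairs with P4ha1 in prolyl 4-hydroxylase, had 260 to 329 CPM after OFBI and 330 to 366 CPM in Naive corneas. The change in log2 was -0.25 (SE 0.14, edgeR adjusted p = 0.251), so neither P4ha1 nor P4hb was called. P4ha2, which encodes another catalytic subunit, had 34.3, 25.3 and 39.3 CPM after OFBI and 16 to 19.5 CPM in Naive corneas. Its groups did not overlap, as for 16.4% of all genes tested with OFBI above. The log2 fold change of P4ha2 was 0.84 (SE 0.27, edgeR adjusted p = 0.0692), which did not pass.

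Of 14 genes of procollagen secretion and maturation, 13 were tested and 10 did not pass. Of the 13, 1 was called higher, against 8.41% of all genes tested, and 2 lower, against 10.4%. The median log2 fold change was -0.31. Bmp1, the procollagen C-proteinase that also activates the Lox precursor, had 58.1, 62.7 and 46.8 CPM after OFBI and 26.6, 30.1 and 35.4 CPM in Naive corneas. The change in log2 was 0.87 (SE 0.21, edgeR adjusted p = 0.0347), and 0.11 once the GC and length trend was taken out (edgeR adjusted p = 0.824). Ctage5, whose product helps load procollagen for export from the endoplasmic reticulum, had 84.1, 69.1 and 50.5 CPM after OFBI and 119 to 133 CPM in Naive corneas, or -0.87 in log2 fold change (SE 0.20, edgeR adjusted p = 0.0306). Tll2, a protease of the same family as Bmp1, was called lower with 0 counts in all OFBI libraries, but its Naive level of 1.16 CPM is under the 1.62 CPM that 3 fragments over the OFBI group would give, so a difference was not detectable. Sec31a, a coat protein of export vesicles, had 120 to 156 CPM after OFBI and 151 to 163 CPM in Naive corneas and was not called.

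**Figure D5:**
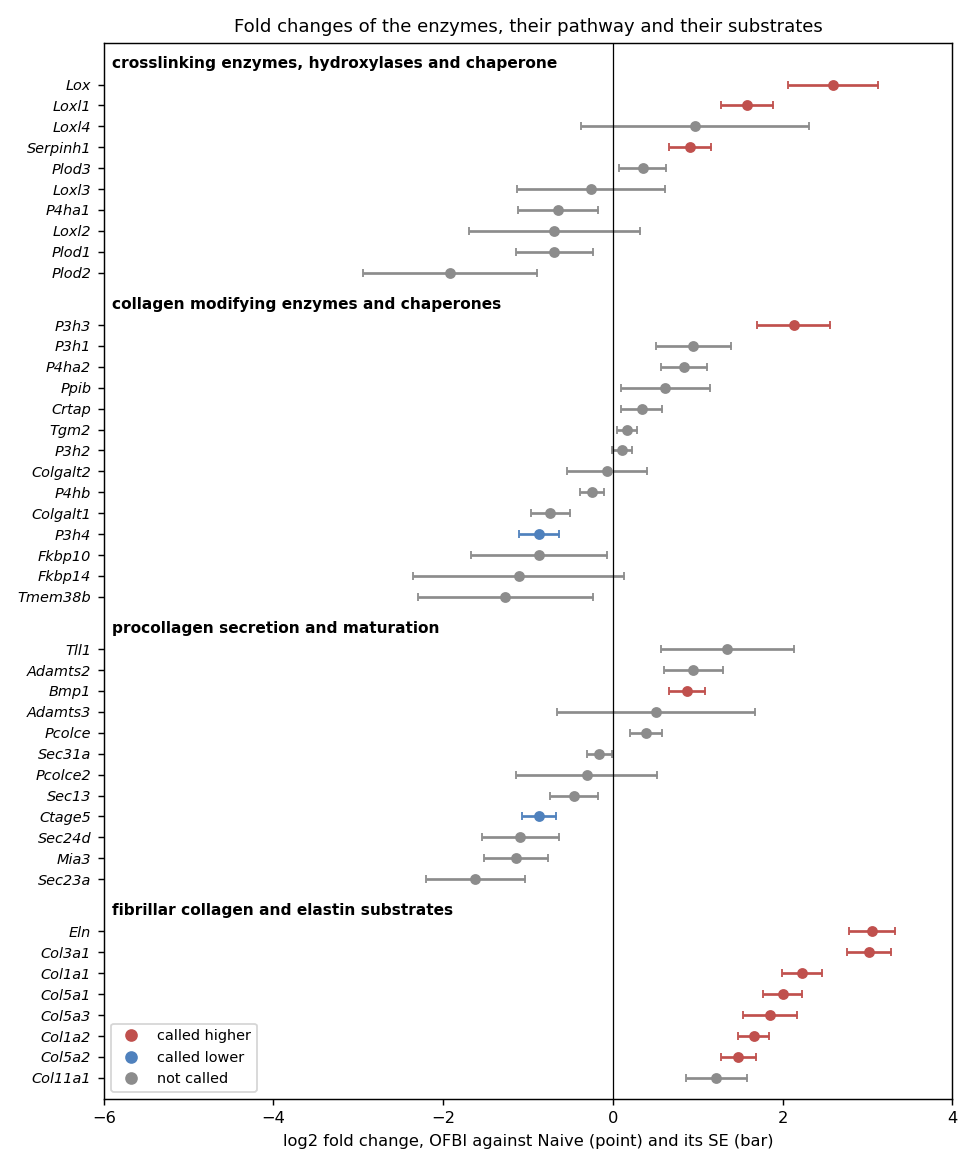
Log2 fold change (OFBI against Naive) and its SE for the 10 genes, the other collagen modifying genes, the secretion and maturation genes and the substrates, coloured by the edgeR call. Tll2 is left out because it was at 0 in all OFBI libraries. The 7 called substrates lie above 0 and the enzymes fall on both sides of it.

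P4ha1, Plod2 and Lox are known targets of the hypoxia-inducible factors, so a list of 15 hypoxia-response genes was set beside them. None of the 15 was called higher by edgeR, against 8.41% of all genes tested, or by DESeq2, against 13.3%. None was higher at an unadjusted edgeR p below 0.05. By edgeR 4 were called lower, against 10.4% of all genes tested. Of these, Car9, Adm and Ankrd37 were at 0 in all OFBI libraries, so they passed the filter on low counts through the Naive libraries alone. Ndrg1 had 125, 157 and 129 CPM after OFBI and 240 to 251 CPM in Naive corneas, or -0.84 in log2 fold change (SE 0.14, edgeR adjusted p = 0.0149). Car9, which encodes a carbonic anhydrase, was at 0 in all OFBI libraries and at least 3.7-fold lower than in Naive corneas set against 3 fragments summed over the OFBI libraries. Adm and Ankrd37 were also at 0 after OFBI, with Naive levels of 1.47 and 0.874 CPM, under that floor of 1.62 CPM, so a difference was not detectable. DESeq2 did not call these genes lower (DESeq2 adjusted p = 0.0558 and 0.211). The most abundant of the 15, Egln3 and Ldha, differed by -0.07 (SE 0.17) and 0.27 (SE 0.16) on the log2 scale, neither passing.

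Promoter sequences of 5 of the 10 genes are in the RefSeq table for GRCm38.p6. Those of Serpinh1, which was called, and of P4ha1, which was not, are shown as a called and an uncalled gene of the endoplasmic reticulum. The 250 bases before the annotated start are given 5′ to 3′ on the gene's strand, with matches to ACGTG or GCGTG on either strand in capitals. They are chr7:99353240-99353489 (minus strand) and chr10:59323046-59323295 (plus strand).
Serpinh1: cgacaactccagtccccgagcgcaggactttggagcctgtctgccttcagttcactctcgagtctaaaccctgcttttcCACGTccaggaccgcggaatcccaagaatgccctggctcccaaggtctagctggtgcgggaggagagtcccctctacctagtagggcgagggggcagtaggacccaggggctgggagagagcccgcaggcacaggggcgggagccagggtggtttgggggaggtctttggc
P4ha1: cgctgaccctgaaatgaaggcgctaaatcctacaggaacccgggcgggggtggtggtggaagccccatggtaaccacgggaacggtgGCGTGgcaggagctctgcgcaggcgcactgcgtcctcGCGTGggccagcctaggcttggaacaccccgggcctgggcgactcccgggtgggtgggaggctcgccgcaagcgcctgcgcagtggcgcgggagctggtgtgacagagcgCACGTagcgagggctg
The Serpinh1 window holds 1 match to ACGTG and none to GCGTG, and the P4ha1 window holds 1 and 2. All 5 windows hold at least 1 of the cores: Plod3 has 1 ACGTG and 3 GCGTG, and Loxl4 and Plod1 have 1 GCGTG each. Of 32851 promoter windows of this length in the table, 38.6% hold at least 1 match to either, 16.6% to ACGTG and 28.2% to GCGTG. The Serpinh1 and P4ha1 windows are 63.6% and 69.6% GC, and the 5 windows range from 55.6% to 76%, against a median of 52.4%. Both cores contain CG, and no share was computed over windows of like GC. The 38.6% is thus no matched background for these windows. A match is a string of letters and not a measured binding site.

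Levels of other cell types' markers were set beside these results. Keratocyte markers, 6 genes, summed to 216 to 392 CPM in OFBI and 406 to 466 CPM in Naive libraries, with 1 called higher and 2 lower. Kera, which defines keratocytes, had 0, 20 and 0 estimated counts after OFBI and 456 to 597 in the deeper Naive libraries. In CPM this was 0, 6.4 and 0 against 9.48 to 12.9, and Kera was not called (edgeR adjusted p = 0.254). The OFBI floors of 3.52, 3.58 and 10.2 CPM limit that comparison. Thbs4 was the marker called higher, Dcn and Ptgds were called lower, and Lum and Aldh1a1 overlapped between the groups. The corneal epithelial keratin Krt12 was present in every library, with 22900 to 28800 CPM after OFBI and 8870 to 11100 CPM in Naive corneas, and was called higher (edgeR adjusted p = 0.00666). Corneal epithelial markers, 2 of 7 called higher and 1 lower, summed to 55500 to 73900 CPM against 27900 to 29000 CPM. Conjunctival markers, 2 of 4 tested called higher and 1 lower, summed to 4760 to 6020 CPM against 3270 to 3980 CPM. Krt13, called higher, was at a mean of 4080 against 1390 CPM, and Muc4, called lower, at 599 against 1780 CPM. Muc5ac was not tested. It was at 0 after OFBI and had 36 estimated counts over the Naive libraries, a level under the OFBI floor, so a difference was not detectable. Of 5 corneal endothelial markers 2 were called lower, Slc4a11 at a mean of 15.4 against 81.1 CPM and Col8a1 at 35.1 against 62.2 CPM, while the sums were 1040 to 1080 against 1080 to 1090 CPM. Lens markers, 1 of 4 tested called higher, summed to 369 to 573 CPM against 148 to 164 CPM. Most of that sum was Cryaa, the marker called, at a mean of 413 against 118 CPM. The others tested were not called, with means of 11.7 against 19.9 for Cryba1, 6.98 against 12.1 for Bfsp1 and 8.58 against 7.26 CPM for Mip. Skeletal muscle markers, 1 of 6 called lower, summed to 119 to 157 CPM against 191 to 199 CPM. In bulk tissue fewer cells of a type and less RNA per cell cannot be told apart.

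Most tested markers of hepatocytes, cardiomyocytes and lymphocytes were called higher after OFBI. Hepatocyte markers, 10 genes of which 4 were tested and all 4 called higher, summed to 139, 152 and 965 CPM in the OFBI libraries and 19.9 to 29.7 CPM in Naive libraries. The highest value was in OFBI replicate 3, the shallowest library, where Lox, Loxl1, Loxl2, P4ha1 and Serpinh1 were also at their highest OFBI level. Loxl3, Loxl4, Plod2 and Plod3 were highest in OFBI replicate 1, and Plod1 in OFBI replicate 2. Cardiomyocyte markers, with 4 of 7 called higher, summed to 156, 17.6 and 189 CPM after OFBI and 11.9 to 16.2 CPM in Naive libraries. In OFBI replicate 2 the cardiomyocyte sum was near the Naive level. The hepatocyte sum, at 152 CPM, and the lymphocyte sum, at 22.4 CPM, were above all Naive libraries there. Lox was at 8.32, Loxl1 at 57.6 and Serpinh1 at 41.6 CPM in that library, also above all Naive libraries. Whether the levels of these genes go with the marker sums was not tested. Lymphocyte markers, with 4 of 5 tested called higher and Cd79a and Ms4a1 at 0 after OFBI, summed to 22.4 to 106 CPM against 3.2 to 4.3 CPM. Without any 1 Naive replicate the edgeR test called 0 markers of these 3 lists, with 5 hepatocyte, 4 cardiomyocyte and 4 lymphocyte markers higher at an unadjusted p below 0.05 each time. In the same fits DESeq2 called 4 to 6, 4 and 4, and limma-voom 4, 3 and 3 to 4.

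Macrophage markers, 3 of 7 called higher, summed to 63.6 to 74.6 CPM against 38.4 to 44.5 CPM in Naive libraries. Smooth muscle and pericyte markers, 1 of 5 called higher, summed to 60.0 to 86.1 CPM against 59.7 to 63.6 CPM, and blood vessel markers to 21.5 to 48.0 CPM against 21.4 to 26.6 CPM. Of the 5 blood vessel markers Tek was called lower, at 0 after OFBI, but its Naive level of 1.38 CPM is under the floor of 1.62 CPM, so a difference was not detectable. Cartilage markers, none of 3 tested being called by edgeR and none passing an unadjusted p below 0.05, summed to 16.8 to 23.2 CPM against 14.3 to 16.5 CPM, with Acan and Matn1 at 0 in all 6 libraries. The part of these cells in the levels of the 10 genes was not tested.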

How the data were processed

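RNA-seq of pooled corneas was analysed, with 3 OFBI and 3 Naive libraries. The labels' protocols name the RNeasy Mini Kit, 2 µg of RNA for each library and the KAPA Stranded kit. HISAT2, StringTie, FastQC, DESeq2 and the build GRCm38 appear in the submitters' processing notes. For tool versions, annotation release and strand setting the entry is "not given in the sources used here".

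Estimated counts per gene were deposited by the authors as whole numbers not scaled for depth. Multiples of 4 made up 39.4% to 50.5% of values from 1 to 40, from which about 4 counts per fragment is inferred. Each table has 22040 rows. The 64 rows on 31 shared symbols were summed, leaving 22007 symbols. Replicates differed by more than sampling noise (mean chi-square per gene 16.7 to 58.8, and 4.16 to 14.7 with counts divided by 4).

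Testing used edgeR 4.0.16 in R 4.3.3: filterByExpr, TMM (factors 0.916 to 1.08), quasi-likelihood fit on group, two-sided. The p-values measure spread between pools. The SE is the log2 fold change divided by the square root of F, and 2 SE intervals are approximate. Alternatives, with DESeq2 1.42.0 and limma 3.58.1 among them, are in the closing section. Thinning kept a random part of the counts, to 2646457 for Naive or 1173472 for all libraries. The procedure was tested on simulated data. Coordinates are those of GENCODE mouse release 21 (GRCm38), and lengths and GC those of its longest coding transcripts, except that the trend used exon union length. It was fitted with splines of 5 degrees of freedom.

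The genes and lists were chosen with earlier results of these data known. The text names the 10 genes, and from each other list up to 4 genes with the smallest p in each direction among those called and the 2 most abundant. Mia2 was matched under its older symbol Ctage5. Col5a1, Col5a2, P4ha2, Krt12 and marker genes are named outside that rule.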

Additional observations from a re-analysis of the deposited data

How the results depend on the processing

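The 3 calls among the 10 genes kept their direction in every alternative that tested them, and passed in 20 of 25 alternatives for Lox, 21 of 26 for Loxl1 and 10 of 26 for Serpinh1. The replicate numbers are shared between the groups, but deviations of same-numbered libraries correlated at -0.02 to 0.01 and not every library correlated best with its own number, so the numbers do not pair them. With a replicate block edgeR called 1 of the 10 genes higher (Loxl1, adjusted p = 0.0339) and with the block and a GC and length trend removed 0. Over all genes the block gave 540 higher and 253 lower, and the block with the trend removed 324 and 186, against 1173 and 1446 as reported. The block left 2 hepatocyte, 0 cardiomyocyte and 1 lymphocyte markers called higher, against 4, 4 and 4. It left 0 secretion genes called either way, 0 modifying genes lower and 1 hypoxia gene lower, and with the trend removed also 0 modifying genes higher. With the trend removed and no block, 1 of the 10 genes was called higher, 0 modifying genes higher and 2 lower, and 0 secretion genes higher and 1 lower. Col1a2 lost its call with the block and trend removed (0.99, edgeR adjusted p = 0.0584). The enzyme to collagen differences moved to -1.74 for P4ha1 and -0.57 for Serpinh1.

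Other counts over all genes that differed by more than 1.5 times were 1854 higher with DESeq2, 910 lower with no filter, and 526 and 460 lower with the Naive or all libraries thinned. Without Naive replicates 1, 2 and 3, the alternatives added after seeing the data gave 604, 479 and 539 lower with DESeq2 and 776, 529 and 691 with limma-voom. Leaving out each library in turn with edgeR gave 0 to 1611 higher and 0 to 2065 lower. Of the 10 genes it gave 0 to 3 higher and 0 to 1 lower. Of the modifying genes it gave 0 to 2 either way, of the secretion genes 0 to 2 higher and 0 to 3 lower, of the substrates 0 to 8 higher and of the hypoxia genes 0 to 5 lower. The cause was not tested.

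For modifying genes DESeq2 called 3 higher and 2 lower, counts divided by 4 gave 2 higher and library size alone 2 lower. The lower count was 0 with limma-voom, upper quartile factors, no filter, at least 1 CPM in 3 libraries, either thinning, and DESeq2 or limma-voom without any 1 Naive replicate. For secretion genes DESeq2 called 2 higher and 4 lower, counts divided by 4 gave 2 higher, and library size alone, no filter and DESeq2 without Naive replicate 2 gave 0 higher. Their lower count was 1 with no filter, the 1 CPM filter, the Naive libraries thinned, DESeq2 without Naive replicate 1 or 3 and limma-voom without Naive replicate 1. It was 0 with all libraries thinned and with either tool without Naive replicate 2. Hypoxia genes called lower were 2 with the Naive libraries thinned and with DESeq2 without any 1 Naive replicate, and 1 with all libraries thinned.

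Signs turned only for genes that were not called. Loxl3 was at 0.04 with counts divided by 4 and between -1.58 and 0.15 without 1 library in turn, above 0 without OFBI replicate 2 or 3 (0.15 and 0.14). Loxl4 was at -1.19 with limma-voom, -1.57 with the block, -1.88 with the block and trend removed and between -8.89 and 1.67 without 1 library in turn, the lowest without OFBI replicate 1, where both remaining OFBI libraries were at 0. Plod3 was at -0.16 and, with the block, -0.17 with the trend removed, and Tgm2 at -0.25 and -0.26, and at -0.03 with library size alone. Egln3 was at 0.11 and 0.10 with the trend removed, between -0.22 and 0.08 without 1 library in turn, the highest without OFBI replicate 3, and 0.02 with limma-voom without Naive replicate 3. Depth limits Lox, Loxl2, Loxl3, Loxl4 and Plod2, whose mean Naive levels lie under the floor of 1 or more OFBI libraries, so that a fall to 0 in those libraries could not be seen. Lox was not tested with all libraries thinned.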
